A study of Mus musculus with 53 samples.

Results

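AP-1 is the name of a group of transcription factors that bind DNA as pairs of basic leucine zipper (bZIP) proteins. The Fos proteins (from Fos, Fosb, Fosl1 and Fosl2) cannot pair with each other and need a Jun partner (from Jun, Junb or Jund), while Atf3, Batf3 and Maff encode smaller bZIP proteins, without a classical activation domain, that can compete for the same partners or sites. Several of these genes, Fos above all, are immediate early genes, which cells switch on within minutes of a stimulus and whose transcripts are short-lived. In macrophages AP-1 is known for its part in inflammatory and growth-factor responses, and BATF3 for its need in the development of a class of dendritic cells.

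The transcripts of these 10 genes, found by their symbols, were followed among 23847 loci in 53 RNA-seq samples of mouse bone marrow-derived macrophages (BMDMs). The genes, and the gene lists used below, were chosen with earlier results of these data known. Shares of all loci set beside them are therefore a description and not an independent test. The cells came from C57BL/6 mice of 8 to 12 weeks, either wild-type (WT) or lacking Stat6 in the whole body (Stat6KO), the transcription factor that the IL-4 receptor activates, and were differentiated for 6 days with supernatant of L929 cells. They received 20 ng/ml of IL-4 for 1, 3, 6 or 24 h, or no IL-4 (control, sampled at 0, 1, 3, 6 and 24 h). Each WT group had 4 samples, except WT 24 h IL-4 with 3, and each Stat6KO group had 2. The study describes its WT values as averages over individual animals, but the labels do not tie a replicate number to an animal, so the p-values below measure the spread between these samples. Values are FPKM, the authors' fragments normalised to transcript length and to the number of mapped fragments, which allow levels to be compared between genes.

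Stat6 itself lay at 58.7 to 90.6 FPKM in the WT samples and at 14.3 to 24.0 FPKM in the Stat6KO samples, so that every Stat6KO sample was below every WT sample although reads still mapped to the locus. The samples held 10017 to 10380 loci at 1 FPKM or more, and their relative sequencing depth, read from the steps between low FPKM values, ran from 0.706 to 1.56. The 7 macrophage markers found, among them Csf1r and Cd68, summed to 2621 to 4892 FPKM in each sample. The summed level of 4 T and NK cell markers was at most 0.194 FPKM, of 3 B cell markers at most 0.727 FPKM and of 4 stromal markers at most 0.649 FPKM. The 4 mast cell and eosinophil markers summed to 1.6 to 9.25 FPKM, while 5 markers of neutrophils and their precursors summed to 195 to 963 FPKM. The 2 Stat6KO replicates stood apart, and same-numbered samples moved together (mean correlation of their deviations from the group means 0.714), so both values are given wherever a Stat6KO level matters. In bulk samples, fewer cells of a type and less RNA per cell cannot be told apart.

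The stretches upstream of the annotated RefSeq start sites of Fos, Batf3 and Atf3 are printed because these genes moved in different directions or at different times with IL-4. They are in 5′ to 3′ direction on the gene's strand (build GRCm38.p6), without bases that GENCODE vM21 annotates as untranslated sequence of a transcript, and capitals mark matches to the motifs searched. For Fosl2 the whole window lies inside such sequence, and it is not shown.

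Fos, chr12:85473640-85473889, plus strand, up to the base before the start site: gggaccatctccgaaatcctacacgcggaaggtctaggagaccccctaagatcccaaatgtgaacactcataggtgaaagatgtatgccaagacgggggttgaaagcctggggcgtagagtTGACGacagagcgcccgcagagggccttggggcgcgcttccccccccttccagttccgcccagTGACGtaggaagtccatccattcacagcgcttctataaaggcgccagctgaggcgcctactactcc
Batf3, chr1:191098164-191098324, plus strand: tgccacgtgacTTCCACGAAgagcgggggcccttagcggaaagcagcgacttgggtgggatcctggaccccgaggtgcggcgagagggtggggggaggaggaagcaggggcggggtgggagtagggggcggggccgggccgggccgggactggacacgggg
Atf3, chr1:191183341-191183583, minus strand: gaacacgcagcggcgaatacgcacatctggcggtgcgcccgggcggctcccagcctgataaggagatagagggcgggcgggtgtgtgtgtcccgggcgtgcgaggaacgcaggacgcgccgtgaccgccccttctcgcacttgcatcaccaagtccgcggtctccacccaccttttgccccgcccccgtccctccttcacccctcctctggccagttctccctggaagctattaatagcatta

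Of the 10 genes, 9 had RefSeq promoter windows (250 bases before to 50 bases after the start site, 11 windows in all), and Fosl1 had none. The windows were searched on both strands for the AP-1 site (TGACTCA or TGAGTCA), the cyclic AMP response element (CRE, TGACGTCA) and its half-site TGACG, the STAT site TTCNNNGAA, the STAT6 site with 4 bases between TTC and GAA, and the CArG box, which serum response factor binds. The Fos window held the half-site at positions -129 and -66 from the start site, where 20.8% of all 32807 mouse windows held at least 1. The Batf3 window held a STAT site (TTCCACGAA) at position -239, a motif found in 8.29% of all windows. Of the 3 start sites of Maff, 1 (chr15:79347270-79347569) had a full CRE at -29, which contains half-sites on both strands, and a STAT site (TTCCGGGAA) at 28 downstream. A CRE was present in 1.79% of all windows. Half-sites alone were found for Fosb (-60), Junb (-106), Atf3 (-7, past the end of the stretch shown) and 1 further Maff window (-122), and none of the motifs for Fosl2, Jun, Jund and the remaining Maff window. For Jund the RefSeq start site used (70697739), where the locus measured begins, lies well upstream of the gene start in GENCODE vM21 (70698949). For Atf3, Batf3 and Fosl2 the start site used (191183333, 191098414 and 32136472) lies downstream of the GENCODE gene start (191218039, 191097847 and 32135801). Their windows, with the STAT site of Batf3, thus lie inside the annotated genes. For these 4 genes the window may not be the one next to the transcript measured. No member window held an AP-1 site (5.21% of all windows), a STAT6 site (6.94%) or a CArG box (1.63%). Variants of these motifs and sites outside the windows were not searched for, so the lack of a match holds only for these runs in these windows. A match is a run of letters and not a measured binding site.

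In resting WT cells (0 h control) the members spanned a very wide range of levels. Atf3 was the highest at 209.6 ± 28.7 (SD, n = 4) FPKM, followed by Fos at 78.5 ± 3.13 (SD, n = 4). Jun at 31.9 ± 8.83 (SD, n = 4) and Junb at 30.1 ± 9.59 (SD, n = 4) overlapped in their samples and could not be ordered. Jund stood at 15.3 ± 5.12 (SD, n = 4), and Fosl2 at 5.27 ± 0.383 (SD, n = 4) and Batf3 at 5.26 ± 1.36 (SD, n = 4) again overlapped. Maff was listed at 0.575 to 0.806 FPKM, Fosb at 0.0607 to 0.0859 FPKM and Fosl1 at 0.0176 to 0.0575 FPKM. The Fos family transcript of these macrophages was therefore almost all Fos, with the Jun family split between its 3 members.

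For the tests, log2(FPKM + 1) of the 11146 loci that reached 1 FPKM in any sample was fitted with limma, and a change was called at a Benjamini-Hochberg adjusted p below 0.05, over all these loci, and at least 2-fold on that scale, which understates the change of low genes. Of the 10 members 8 were tested. Fosb and Fosl1 stayed below 1 FPKM in every sample and are described apart.

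IL-4 lowered Fos and raised Fosl2 and Batf3 in WT cells within 1 h, and raised Atf3 at 24 h. At 1, 3 and 6 h the called members were the same 3 genes: Fosl2 and Batf3 higher, Fos lower. At 24 h Fosl2, Batf3 and Atf3 were called higher and none was called lower. Across all tested loci, 1.09% were called higher and 0.395% lower at 1 h, 2.61% and 1.27% at 3 h, 3.18% and 2.36% at 6 h, and 3.91% and 4.58% at 24 h. Counting every member with an adjusted p below 0.05 whatever the fold, 4 of 8 passed at 1 h, 4 of 8 at 3 h, 6 of 8 at 6 h and 7 of 8 at 24 h, beside 9.39%, 28.9%, 41.2% and 55% of all tested loci. The median log2 change of the 8 members was -0.04, 0.32, 0.56 and 0.77 at 1, 3, 6 and 24 h, and that of all tested loci -0.02, 0.01, 0.00 and -0.07.

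The IL-4 and control samples of WT cells did not overlap for 5 of the 8 tested members at 1 h, 5 at 3 h, 6 at 6 h and all 8 at 24 h. The shares of all tested loci without overlap were 16.1%, 38.9%, 46.1% and 64.5%.

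**Figure D1:**
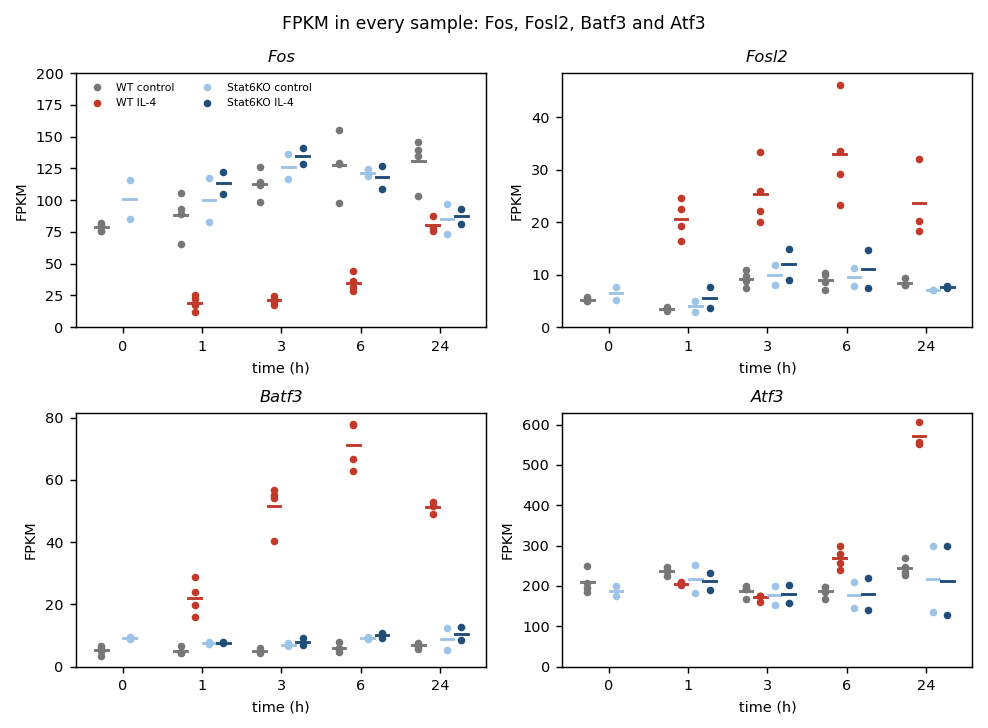
FPKM (linear axes) of Fos, Fosl2, Batf3 and Atf3 against time after IL-4 in every sample, each point 1 sample and each short line a group mean. The 4 WT IL-4 samples at 3 h lie at 17.8 to 24.5 FPKM for Fos, under the controls at 99.0 to 126, and at 40.4 to 56.8 for Batf3, over the controls at 4.22 to 6.02.

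Fos, which encodes the founding Fos protein, fell at every time point in WT. At 1 h it measured 93.0, 106, 89.0 and 65.9 FPKM in the controls and 22.5, 25.2, 17.3 and 11.7 FPKM with IL-4, a log2 change of -2.18 ± 0.17 (SE, adjusted p = 3.4e-13). At 3 h the controls held 115, 126, 112 and 99.0 FPKM and the IL-4 samples 24.5, 22.6, 17.8 and 19.5, a mean 5.35-fold lower in FPKM. The groups did not overlap, and the highest IL-4 sample at 1 h was below the lowest 0 h control. The log2 change was -2.37 ± 0.17 (SE, adjusted p = 1.1e-14) at 3 h and -1.84 ± 0.17 (SE, adjusted p = 1.1e-11) at 6 h, where the controls read 129.6, 156, 128 and 98.2 FPKM and the IL-4 samples 36.0, 43.9, 31.7 and 28.2. At 24 h Fos had come back to 87.8, 78.0 and 75.7 FPKM against 135, 146, 139.6 and 103 in the controls, still lower in each sample but under the 2-fold limit (log2 change -0.68 ± 0.18 SE, adjusted p = 0.00175), and it missed the threshold by Tukey's test (adjusted p = 0.0747). The response at 24 h differed from that at 6 h by 1.16 (adjusted p = 4.0e-04) on the log2 scale, so the return was larger than the spread.

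Fos in the untreated cells was not constant. The WT controls rose from 76.2, 80.2, 75.7 and 82.1 FPKM at 0 h to 135, 146, 139.6 and 103 at 24 h, a change of 0.72 ± 0.17 (SE, adjusted p = 0.00266), and Fosl2 from 4.95, 5.76, 5.4 and 4.98 to 8.26, 8.11, 9.37 and 8.08 (log2 change 0.59 ± 0.21 SE, adjusted p = 0.0455). These 2 of 8 members passed the test, beside 17.2% of all loci, and none was called, beside 1.13%. The change of Fosl2 missed the threshold whichever of the 8 samples was left out (adjusted p = 0.0537 to 0.108). The IL-4 samples of Fos at 24 h overlapped the 0 h controls. In Stat6KO no member passed between 24 h and 0 h; Fos read 116 and 85.5 at 0 h and 73.4 and 97.1 at 24 h.

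Fosl2, whose product FRA-2 is a Fos protein without the strong activation domain of FOS, moved the opposite way. It rose at 1 h from 3.44, 3.70, 3.93 and 3.04 FPKM in the controls to 22.6, 24.6, 19.2 and 16.3 with IL-4, 5.87-fold in the means (log2 change 2.25 ± 0.21 SE, adjusted p = 5.4e-11). The IL-4 samples were at 26.0, 33.4, 22.2 and 20.0 FPKM at 3 h, 33.5, 46.2, 29.2 and 23.2 at 6 h and 32.1, 20.3 and 18.4 at 24 h, with controls between 7.03 and 10.9 at these times. No IL-4 sample overlapped a control. The log2 changes were 1.35 ± 0.21 (SE, adjusted p = 2.0e-06), 1.74 ± 0.21 (SE, adjusted p = 8.6e-09) and 1.34 ± 0.23 (SE, adjusted p = 4.8e-06). The controls were lowest at 1 h. The log2 response was smaller at 3 h than at 1 h (-0.90, adjusted p = 0.0407), a difference that missed the threshold (adjusted p = 0.0548 to 0.106) whichever sample was left out, except IL-4 replicates 3 and 4 and control replicate 3 at 1 h and IL-4 replicate 2 and control replicate 4 at 3 h.

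The opposite moves changed the make-up of the Fos family transcripts. Fos made up 92.4 to 96.0% (group means) of the summed FPKM of Fos, Fosb, Fosl1 and Fosl2 in the 5 WT control groups, and Fosl2 3.89 to 7.55%. With IL-4 Fosl2 took 52.5% ± 4.03 (SD, n = 4) at 1 h, 54.2% ± 4.14 (n = 4) at 3 h, 48.0% ± 2.56 (n = 4) at 6 h and 22.2% ± 3.86 (n = 3) at 24 h. Per sample, the ratio of Fosl2 to Fos FPKM was 0.0754 to 0.0867 in the WT controls at 3 h and 1.03 to 1.48 with IL-4. The mean summed FPKM of the family was 122 ± 12.6 in the controls and 46.6 ± 8.09 with IL-4 at 3 h, and 139 ± 19.1 and 105 ± 14.0 at 24 h. In the Stat6KO groups, IL-4 included, Fosl2 stayed at 3.76 to 8.40% in the group means and the ratio at 0.0341 to 0.116 in the samples.

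**Figure D2:**
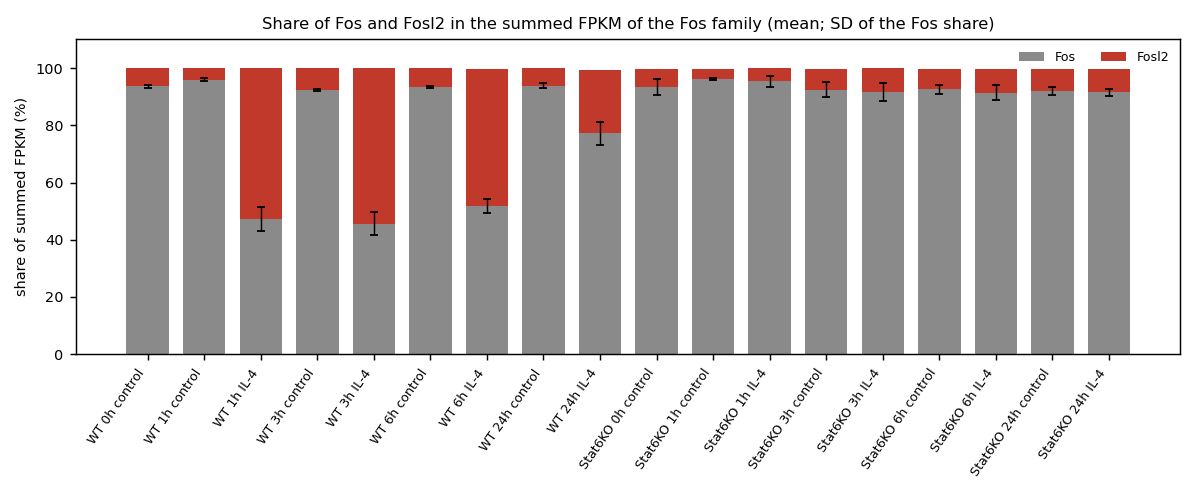
Share (%, linear axis from 0) of Fos (grey) and Fosl2 (red) in the summed FPKM of the Fos family, as the mean of each group, with the SD of the Fos share as error bars (n = 4, 3 or 2). Fosl2 takes 48.0 to 54.2% with IL-4 at 1, 3 and 6 h in WT and at most 8.40% in every control and Stat6KO group.

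Batf3 showed the steepest rise. The IL-4 samples read 19.9, 15.9, 28.7 and 24.1 FPKM at 1 h, against 6.50, 4.20, 4.55 and 4.35 in the controls, and 55.2, 40.4, 54.3 and 56.8 at 3 h, against 5.12, 4.22, 6.02 and 4.53. At 6 h they reached 66.9, 63.0, 77.7 and 78.0 FPKM with controls at 4.79, 5.72, 6.02 and 7.87, 11.7-fold in the means, and at 24 h 51.6, 49.0 and 53.1 with controls at 7.71, 5.57, 6.44 and 7.38. Every IL-4 sample exceeded every control, at least 2-fold in each case. The log2 changes were 1.96 ± 0.18 (SE, adjusted p = 2.9e-11), 3.14 ± 0.18 (SE, adjusted p = 1.3e-17), 3.36 ± 0.18 (SE, adjusted p = 1.2e-18) and 2.76 ± 0.19 (SE, adjusted p = 8.3e-15). The response grew from 1 to 3 h by 1.18 (adjusted p = 9.3e-04), and its decline from 6 to 24 h did not pass the test (-0.61, adjusted p = 0.081).

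Since Batf3 is best known from dendritic cells, 4 of their markers were read beside it. Flt3 and Zbtb46 stayed below 1 FPKM in every sample, and with Ccr7 and Siglech the list summed to 0.788 to 2.13 FPKM in the WT IL-4 samples at 3 h and to 0.615 to 1.89 FPKM in the controls. Over all times the ranges were 0.556 to 2.53 FPKM with IL-4 and 0.603 to 4.94 FPKM without, so the groups overlapped.

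Atf3, a bZIP repressor induced by stress and by Toll-like receptor signals, was abundant throughout and responded late. At 1 h the IL-4 samples were at 203 to 209 FPKM and the controls at 224 to 246, all slightly higher, but the difference did not pass the test (log2 change -0.20 ± 0.18 SE, adjusted p = 0.606), and neither did that at 3 h (log2 change -0.13 ± 0.18 SE, adjusted p = 0.68). At 6 h Atf3 rose from 168, 198, 196 and 186 to 240.1, 279, 257 and 299 FPKM (log2 change 0.52 ± 0.18 SE, adjusted p = 0.0179), a change that lost the test without either of 2 samples (IL-4 replicate 4, adjusted p = 0.0548; control replicate 1, adjusted p = 0.0543). At 24 h it reached 606, 557 and 552 FPKM against 234, 228, 248 and 269, 2.34-fold in the means (log2 change 1.22 ± 0.19 SE, adjusted p = 1.5e-06). The 24 h response was larger than the 6 h one by 0.70 (adjusted p = 0.0411), a difference that missed the threshold (adjusted p = 0.0539 to 0.0902) whichever sample was left out, except IL-4 replicates 2 and 4 and control replicate 1 at 6 h and control replicate 4 at 24 h. At 24 h Atf3 was the highest member by far, with Fos next among the IL-4 samples. The 5 neutrophil and precursor markers also differed at 24 h, summing to 195 to 287 FPKM with IL-4 and to 404 to 550.2 FPKM in the controls, and the macrophage markers to 2621 to 2649 and 3575 to 4075 FPKM. The macrophage sums were also lower with IL-4, without overlap, at 1 h (3397 to 3523 against 3651 to 4362), 3 h (3161 to 3674 against 3749 to 4072) and 6 h (3018 to 3324 against 3615 to 4034). The list of macrophage markers holds Cd14, a gene that the paper reports as repressed by IL-4. The part of these markers in the members' values was not tested.

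**Figure D3:**
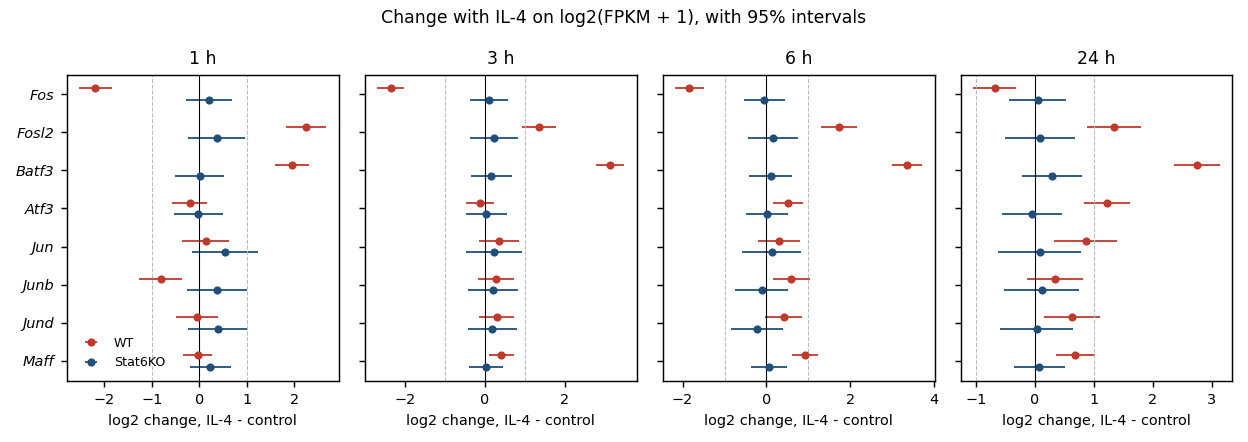
Log2 change of FPKM + 1 with IL-4 (horizontal axis, points, with 95% intervals from limma) of the 8 tested members at 1, 3, 6 and 24 h in WT (red) and Stat6KO (blue), with dashed lines at 2-fold. In WT, Fos is at -2.37 and Batf3 at 3.14 at 3 h, while each Stat6KO interval includes 0.

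The Jun genes, which supply the partners of the Fos proteins, changed less, and none was called at any time. Junb, often an antagonist of JUN in growth control, was lower at 1 h, with 23.1, 18, 24.1 and 10.6 FPKM against 36.3, 26.9, 37.9 and 30.2 (log2 change -0.81 ± 0.22 SE, adjusted p = 0.0101), and higher at 6 h, with 52.9, 59.5, 43.1 and 47.9 against 38.7, 31.7, 28.4 and 33.9 (log2 change 0.60 ± 0.22 SE, adjusted p = 0.0266). The samples did not overlap at either time. The response rose from 1 to 3 h by 1.09 (adjusted p = 0.0157). The fall at 1 h and this turn both rested on IL-4 replicate 4 at 1 h, the lowest sample: without it the change at 1 h was -0.57 (adjusted p = 0.113) and the turn 0.85 (adjusted p = 0.0576). The rise at 6 h missed the threshold without IL-4 replicate 1 or 2 or control replicate 2 or 3 (adjusted p = 0.0545 to 0.084).

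Jun rose at 24 h, from 26.8, 28, 21.8 and 24.3 FPKM to 42.0, 48.3 and 49.4 (log2 change 0.86 ± 0.26 SE, adjusted p = 0.00607), a change that missed the threshold by Tukey's test (adjusted p = 0.141), and its earlier differences did not pass the test (adjusted p = 0.851, 0.336 and 0.349). Jund, the Jun gene that is usually expressed without a stimulus, rose at 24 h from 13.6, 17.1, 9.77 and 10.2 to 18.2, 21.2 and 19.8 FPKM (log2 change 0.63 ± 0.23 SE, adjusted p = 0.0223), which missed the threshold without IL-4 replicate 3 or 4 or control replicate 3 or 4 (adjusted p = 0.0519 to 0.0756). At 6 h Jund was at 0.41 ± 0.22 (SE, adjusted p = 0.129), and when the replicate number entered as a block its adjusted p was 0.0478. In GENCODE vM21 exons of Jun overlap the antisense gene Junos, those of Jund the antisense gene Gm11175 and those of Junb the gene Prdx2 on the other strand. The library kit did not keep the strand, so reads from such overlaps cannot be told apart; Prdx2 was at 140.3 to 159.8 FPKM with IL-4 and 142 to 189.9 in the controls of WT at 1 h.

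As a family the 3 Jun genes summed to 71.4 ± 8.87 FPKM (SD, n = 4) in the WT controls at 1 h and to 60.5 ± 15.8 (n = 4) with IL-4. At 6 h the sums were 74.9 ± 8.88 (n = 4) and 104 ± 15.9 (n = 4), and at 24 h 67.8 ± 13.1 (n = 4) and 103.6 ± 5.43 (n = 3). Junb made up 45.9% ± 2.73 of the sum in the 1 h controls and 30.9% ± 3.35 with IL-4, the widest gap of its shares in WT, while Jund stayed between 18.6 and 22.3% in the group means. By summed FPKM the Fos family exceeded the Jun family in the 3 h controls of WT (122 against 70.2) and was below it with IL-4 (46.6 against 87.6).

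Maff encodes a small MAF protein, which binds MAF sites as a pair with a larger bZIP partner. It was near 1 FPKM and rose from 3 h on. At 6 h the IL-4 samples held 1.64, 2.31, 2.16 and 2.47 FPKM against 0.534, 0.554, 0.706 and 0.806 (log2 change 0.93 ± 0.15 SE, adjusted p = 3.4e-06), 3.30-fold in the means of FPKM, and at 24 h 1.68, 1.94 and 2.03 against 0.742, 0.701, 0.737 and 0.985 (log2 change 0.69 ± 0.16 SE, adjusted p = 5.2e-04). Neither reached 2-fold after 1 was added to each value; with 0.1 added instead the changes were 1.58 (adjusted p = 3.5e-05) and 1.16 (adjusted p = 0.00245), and both were called. The smaller change at 3 h (log2 change 0.41 ± 0.15 SE, adjusted p = 0.0344) missed the threshold without IL-4 replicate 1, 3 or 4 or control replicate 1, 2 or 3 (adjusted p = 0.0551 to 0.0996).

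**Figure D4:**
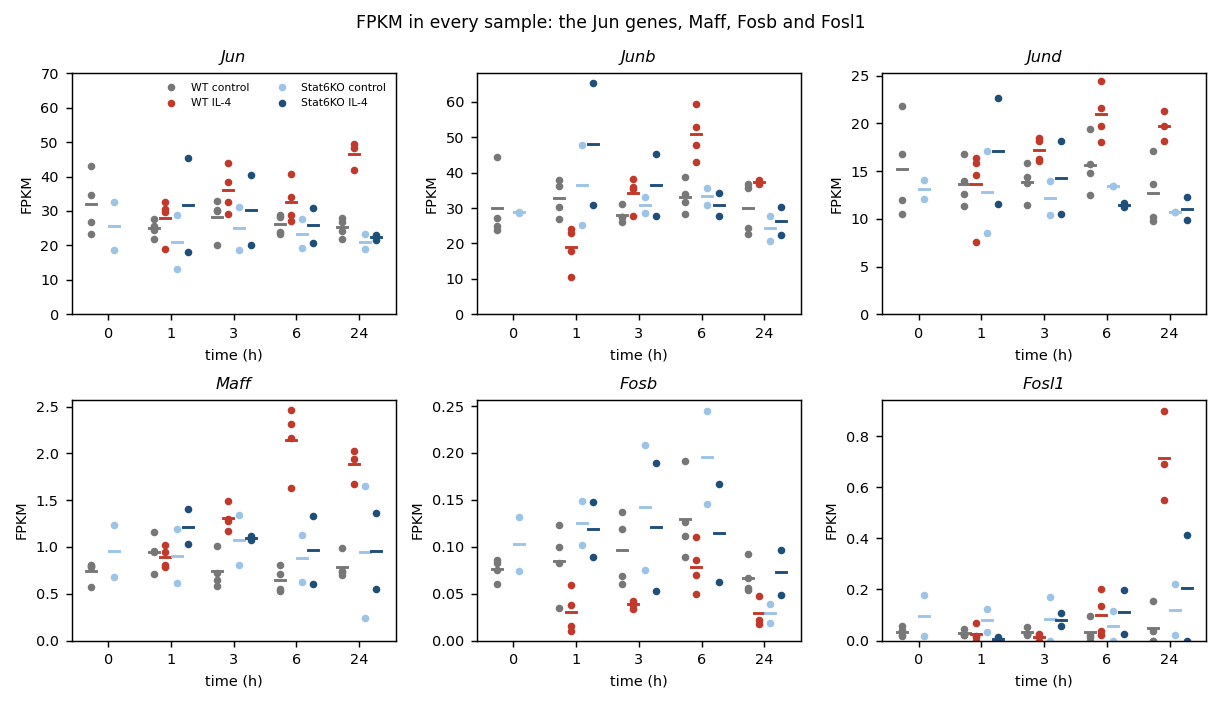
FPKM (linear axes, each scaled to its gene) of Jun, Junb, Jund, Maff, Fosb and Fosl1 against time in every sample, points for samples and short lines for group means. At 24 h the 3 WT IL-4 samples lie at 42.0 to 49.4 FPKM for Jun and 0.552 to 0.899 for Fosl1, above the controls at 21.8 to 28 and 0 to 0.155.

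Fosl1, whose product FRA-1 is like FRA-2 a Fos protein without a strong activation domain, was near 0 except with IL-4 at 24 h in WT. There it was listed at 0.899, 0.691 and 0.552 FPKM against 0, 0.0375, 0 and 0.155 in the controls. An exact two-sided permutation test gave p = 0.0571, the smallest that 3 against 4 samples allow, and 8 such tests were made (Fosb and Fosl1 at 4 times), with no adjustment. With no filter on low values, limma gave a log2 change of 0.71 (adjusted p = 2.7e-09) with 1 added and of 2.55 (adjusted p = 5.7e-06) with 0.1 added, and the second value depends strongly on that choice because 2 controls were at 0. In Stat6KO at 24 h replicate 1 also read 0.415 FPKM with IL-4 and 0.222 without, while replicate 2 read 0 and 0.0202. Exons of Fosl1 overlap Ccdc85b on the other strand, which was at 1.29 to 1.38 FPKM with IL-4 and 0.758 to 1.38 in the controls of WT at 24 h.

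Fosb, the remaining Fos gene, was at most 0.245 FPKM in any sample. At 3 h in WT it read 0.0377, 0.0426, 0.0403 and 0.0335 FPKM with IL-4 and 0.0606, 0.119, 0.137 and 0.0687 without (exact permutation test, two-sided, p = 0.0286, the smallest that 4 against 4 allow). With no filter, limma gave an adjusted p of 0.144 at 3 h.

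In Stat6KO cells no member passed the test with IL-4 at any time, nor over the mean of the 4 times, and the share of all loci called was 0% in each of these 5 comparisons. By limma without adjustment and without the block, 0 members had p below 0.05 in any of them, and Tukey's test called 0 at each time. With the replicate number as a block in limma no member passed either. The smallest adjusted p was then 0.794, for Fosl2 over the mean of the 4 times (0.21). With 2 samples a group the single time points bound the change only loosely, so the mean over the 4 times is given. It was 0.07 (95% interval -0.17 to 0.31) for Fos, 0.21 (95% interval -0.09 to 0.51) for Fosl2, 0.14 (95% interval -0.11 to 0.40) for Batf3 and -0.01 (95% interval -0.26 to 0.25) for Atf3. Over the 8 members these intervals, from the fit without the block, reached from -0.26 to 0.60, so a 2-fold mean change lay outside each of them. The mean does not bound a change at a single time, such as that of Atf3 at 24 h in WT.

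The Stat6KO samples are given by replicate for the 4 genes called in WT. Fos at 3 h read 141 and 128 FPKM with IL-4 and 136 and 117 without. Batf3 at 6 h read 9.24 and 10.8 with and 9.54 and 8.95 without. Fosl2 at 6 h read 7.48 and 14.8 with and 7.86 and 11.3 without. For Batf3 and Fosl2 at 6 h IL-4 went with a lower value in replicate 1 and a higher one in replicate 2. For Fos at 3 h it went with higher values in both. The split of Fosl2 was limited to 6 h: at 1, 3 and 24 h both replicates were higher with IL-4. These rises of Fosl2 did not pass the test. Atf3 at 24 h read 298 and 128 with IL-4 and 300.0 and 136 without, where replicate 1 was more than 2-fold above replicate 2 and IL-4 moved neither by more than 10 FPKM.

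The difference between the genotypes was tested directly as the WT response minus the Stat6KO response on the log2 scale. At 1 h it was called for Fos (-2.38, adjusted p = 1.8e-07), Fosl2 (1.88, adjusted p = 5.8e-04) and Batf3 (1.95, adjusted p = 2.3e-05), 3 of 8 members beside 1.25% of all loci. At 3 h the same 3 genes were called (3.48% of all loci), Fos at -2.46 (adjusted p = 2.9e-08), Fosl2 at 1.12 (adjusted p = 0.0357) and Batf3 at 2.98 (adjusted p = 1.2e-09). They were called again at 6 h (4.41% of all loci), Fos at -1.79 (adjusted p = 1.3e-05), Fosl2 at 1.59 (adjusted p = 0.00135) and Batf3 at 3.26 (adjusted p = 1.1e-10). Maff passed at 6 h without reaching 2-fold (0.87, adjusted p = 0.016).

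At 24 h Atf3 (1.27, adjusted p = 0.00247), Fosl2 (1.25, adjusted p = 0.0106) and Batf3 (2.46, adjusted p = 1.8e-07) were called, beside 6.85% of all loci, and Fos did not pass (-0.73, adjusted p = 0.0661). With the replicate number as a block in limma, the genotype differences of Fosl2 at 3 h (1.12, adjusted p = 1.1e-04) and Atf3 at 24 h (1.27, adjusted p = 3.0e-06) were called. Maff at 6 h again passed with the block (0.87, adjusted p = 2.2e-05). Single samples were left out of the fit without the block only, and there some results crossed the threshold. Where a Stat6KO sample was left out, 1 group kept only 1 of the 2 replicate numbers, which stood apart. Such shifts cannot be told apart from the gap between the replicate numbers. The Fosl2 call at 3 h was lost without WT IL-4 replicate 1 or 2, WT control replicate 3 or 4, Stat6KO control replicate 2 or Stat6KO IL-4 replicate 1, down to 0.80 (adjusted p = 0.26) without the last of these. The Atf3 call at 24 h was lost without Stat6KO IL-4 replicate 2 (0.67, adjusted p = 0.151) or without Stat6KO control replicate 1 (0.70, adjusted p = 0.143). With either replicate number left out of every Stat6KO group, an alternative chosen after seeing the data, the count of calls at 24 h was again 3, and that at 3 h was 2 without replicate 1. The Maff difference at 6 h was lost without Stat6KO IL-4 replicate 2 (adjusted p = 0.179) or control replicate 1 (adjusted p = 0.142). Junb at 1 h, at -1.18 (adjusted p = 0.0913), did not pass but was called without Stat6KO IL-4 replicate 1 (-1.71, adjusted p = 0.0106) or control replicate 2 (-1.63, adjusted p = 0.0201).

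Without IL-4 and over the mean of the 5 control times, 1 of 8 members passed the test, Batf3, higher in Stat6KO by 0.51 ± 0.10 (SE, adjusted p = 1.7e-04), where 21.4% of all loci passed, and none was called (0.287% of all loci). At 0 h Batf3 read 9.35 and 8.96 FPKM in Stat6KO and 6.69, 3.5, 5.02 and 5.82 in WT. At 24 h it read 5.4 and 12.3 in Stat6KO and 7.71, 5.57, 6.44 and 7.38 in WT, where Stat6KO replicate 1 was below every WT sample. The difference did not pass the test at any single time, and at 24 h it ran from -0.27 to 0.78 as single samples were left out. The other 7 members lay between -0.25 (Jun) and 0.11 (Maff). Markers of other cells moved with the genotype: the neutrophil and precursor list summed to 514 to 963 FPKM in the Stat6KO controls and 269 to 550.2 in the WT controls, the dendritic cell list to 1.91 to 7.44 and 0.603 to 4.94 FPKM, and the mast cell and eosinophil list to 6.00 to 8.54 and 1.6 to 6.65 FPKM. Their part in the Batf3 difference was not tested.

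Over time in WT, the response of 2 of 8 members (Batf3 and Junb, above) was called different between 1 and 3 h, of 0 members between 3 and 6 h and of 1 member (Fos) between 6 and 24 h. The shares of all loci were 1.61%, 0.449% and 6.06%. Between 3 and 6 h 3 members had an unadjusted p below 0.05 in limma, and 0 passed after adjustment. When the replicate number entered as a block, Atf3 (0.65, adjusted p = 0.00452), Fos (0.53, adjusted p = 0.0368) and Maff (0.51, adjusted p = 0.0042) passed without reaching 2-fold. These comparisons share samples, those of 3 h and of 6 h each entering a pair of them.

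Of 43 other bZIP genes 38 were tested, and with IL-4 in WT 3, 2, 4 and 1 of them were called higher and 1, 1, 0 and 3 lower at 1, 3, 6 and 24 h. The shares of all tested loci called at these times were 1.09%, 2.61%, 3.18% and 3.91% higher and 0.395%, 1.27%, 2.36% and 4.58% lower. These shares also stand beside the counts of the 3 lists that follow. The median log2 change of the tested genes was -0.02, 0.03, 0.08 and -0.11, beside -0.02, 0.01, 0.00 and -0.07 over all loci. The largest change was that of Nfil3, a repressor that competes with the PAR bZIP factors, which stood at 98.0 ± 7.68 FPKM (SD, n = 4) with IL-4 and 5.32 ± 0.59 (n = 4) without at 1 h (log2 change 3.97 ± 0.14 SE, adjusted p = 4.9e-23). Maf, a large MAF factor that can pair with AP-1 proteins, fell at 24 h from 72.4 ± 3.82 (n = 4) to 13.9 ± 1.17 (n = 3) FPKM (-2.30 ± 0.19, adjusted p = 5.2e-13). Dbp, a PAR bZIP gene, fell at 24 h from 9.27 ± 0.85 (n = 4) to 1.5 ± 0.54 (n = 3) FPKM (-2.06 ± 0.40, adjusted p = 4.0e-05). The genotype differences of all 3 passed the test (3.55, adjusted p = 3.4e-13; -2.38, adjusted p = 1.9e-07; -1.95, adjusted p = 0.0241).

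Of 28 genes for the kinases and serum response factors upstream of AP-1, 26 were tested, and 1, 0, 0 and 2 were called higher and 0, 0, 1 and 0 lower at 1, 3, 6 and 24 h. Whatever the fold, 3, 5, 6 and 4 passed the test higher and 1, 4, 8 and 11 lower. Of all tested loci 9.39%, 28.9%, 41.2% and 55% passed in either direction. Map3k8, a kinase of the ERK pathway, rose at 1 h from 15.5 ± 1.59 (n = 4) to 34.6 ± 1.82 (n = 4) FPKM (1.11 ± 0.08, adjusted p = 7.5e-14). Elk3, a partner of serum response factor, fell at 6 h from 16.3 ± 1.87 (n = 4) to 7.06 ± 1.11 (n = 4) FPKM (-1.11 ± 0.16, adjusted p = 3.1e-07). Mkl2, a coactivator of serum response factor, rose at 24 h from 5.28 ± 0.31 (n = 4) to 12.7 ± 0.04 (n = 3) FPKM (1.12 ± 0.10, adjusted p = 1.5e-11). The median change of the tested genes was 0.03, -0.03, -0.01 and -0.15. Protein phosphorylation, through which these factors act, was not measured.

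**Figure D5:**
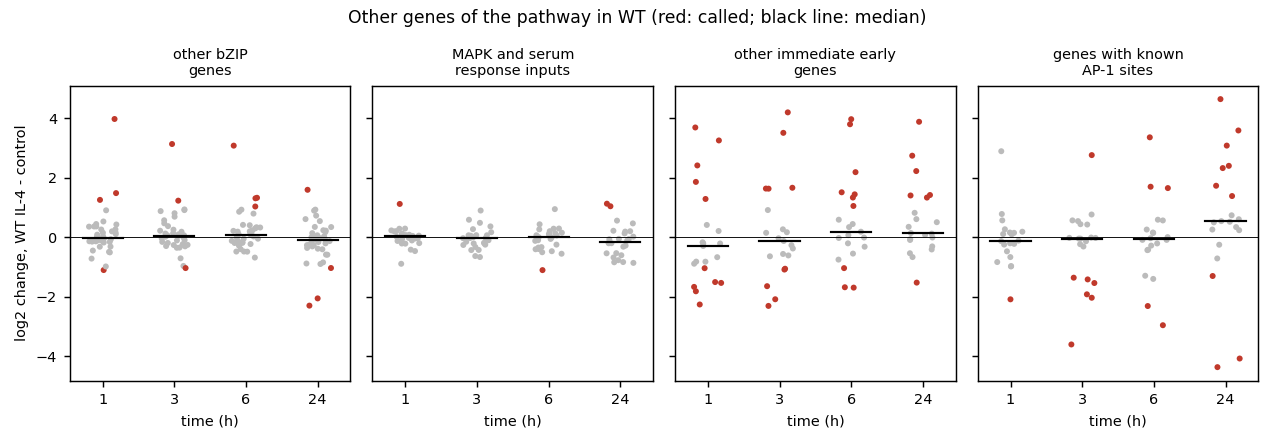
Log2 change of FPKM + 1 with IL-4 in WT (vertical axis) at 1, 3, 6 and 24 h for the tested genes of 4 lists, 1 point a gene, red where called, with the median as a black line. Immediate early genes spread to both sides at 1 h (5 called higher and 6 lower of 21), and genes with known AP-1 sites lie higher at 24 h (7 called higher and 3 lower of 20, median 0.53). Of all tested loci 1.09% were called higher and 0.395% lower at 1 h, and 3.91% and 4.58% at 24 h. The lists were chosen with earlier results of these data known.

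Among 24 other immediate early genes, 21 were tested, and 5, 5, 7 and 6 were called higher and 6, 5, 3 and 1 lower at 1, 3, 6 and 24 h. Ier3, an immediate early gene of survival signalling, rose at 3 h from 9.26 ± 2.03 (n = 4) to 185 ± 27.5 (n = 4) FPKM (4.19 ± 0.16, adjusted p = 1.5e-22). Egr2, a zinc finger factor, rose at 6 h from 4.54 ± 1.66 (n = 4) to 83.3 ± 10.3 (n = 4) FPKM (3.96 ± 0.50, adjusted p = 2.6e-08), and Plk3, a kinase, at 24 h from 1.72 ± 0.31 (n = 4) to 17.1 ± 0.39 (n = 3) FPKM (2.74 ± 0.24, adjusted p = 3.0e-12). Its median change was -0.30 at 1 h and 0.14 at 24 h.

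Genes described as having AP-1 sites (20 of 24 tested) were called higher in 0, 1, 3 and 7 cases and lower in 1, 6, 2 and 3 cases at 1, 3, 6 and 24 h. Of all tested loci 3.91% were called higher and 4.58% lower at 24 h. Itgax, an integrin chain, rose at 24 h from 9.32 ± 5.01 (n = 4) to 240.1 ± 42.1 (n = 3) FPKM (4.64 ± 0.57, adjusted p = 1.2e-08). Il1b, an inflammatory cytokine, fell at 24 h from 32.9 ± 12.3 (n = 4) to 0.575 ± 0.25 (n = 3) FPKM (-4.37 ± 0.66, adjusted p = 6.6e-07), and Thbs1, thrombospondin, from 72.3 ± 14.9 (n = 4) to 3.31 ± 0.81 (n = 3) FPKM (-4.08 ± 0.20, adjusted p = 3.7e-19). The median change went from -0.13 at 1 h to 0.53 at 24 h, where that of all loci was -0.07. The list was chosen with earlier results of these data known, so this difference is a description. None of the genes of these 4 lists was called with IL-4 in Stat6KO at any time, where 0% of all tested loci were called, so this is not particular to the lists.

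The loci most like each member were taken by Pearson's r over the 18 group means of log2(FPKM + 1), which share the libraries, as a description. Fos was closest to Dusp1 (r = 0.967), a phosphatase of MAP kinases, then to Sgk1 (0.953) and Fam214b (0.932). Dusp1 and Sgk1 are immediate early genes themselves, and both were called lower with IL-4 at 1, 3 and 6 h. Batf3 was closest to Edn1 (0.974), Cdh1 (0.973) and Nup62 (0.973), Atf3 to Arhgap10 (0.97), Wsb2 (0.97) and Hsp90ab1 (0.951), and Fosl2 to Ptgir (0.932), Rhbdf2 (0.923) and Lzic (0.916). Among the Jun genes, Jun was closest to Mrgbp (0.899), Gnb4 (0.895) and Lzts2 (0.889), Junb to Sertad1 (0.9), Wdr18 (0.872) and Dusp2 (0.846), and Jund to Ap2a1 (0.934), Rnf126 (0.931) and Limk1 (0.919). Maff was closest to Dnajc11 (0.957), Nat10 (0.95) and Imp4 (0.94). No member was among the 3 closest loci of another.

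By position (mm10, as the files give it) Batf3 lies at chr1:191098414-191108943 and Atf3 at chr1:191170297-191183333 on the opposite strand. The other members lie on separate chromosomes apart from Junb (chr8:84976909-84978748) and Jund (chr8:70697739-70700616): Fos at chr12:85473901-85477270, Fosb at chr7:19302696-19310045, Fosl1 at chr19:5447698-5455938, Fosl2 at chr5:32136472-32157839, Jun at chr4:95049036-95052222 and Maff at chr15:79347678-79359076. All 10 are protein-coding in GENCODE vM21. The neighbours Batf3 and Atf3 differed in time course, Batf3 being called from 1 h on and Atf3 at 24 h.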

How the data were processed

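RNA-seq was made from 53 BMDM samples in 18 groups, with a TruSeq RNA kit that does not mark strand. The authors aligned the reads to mm10 with TopHat 2.0.7 and deposited gene-level FPKM from Cufflinks 2.0.2, 1 table per sample. FPKM are not counts, so no count test was made, and the depth is known only relative to the other samples (0.706 to 1.56).

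Groups were taken from the labels. The 10 members were found by symbol among 23847 loci, and members and gene lists were chosen with earlier results of these data known. The 11146 loci that reached 1 FPKM in any sample were kept, and log2(FPKM + 1) was fitted with limma 3.58.1 (R 4.3.3), 1 mean per group and a trended empirical Bayes variance with 35 residual degrees of freedom. The Benjamini-Hochberg adjustment ran over all loci tested. Every member was named, and of each list the 3 genes with the largest called change in WT. Alternatives were another pseudocount (0.1), filters, normalization, the samples entering the fit, leaving out each sample, Tukey's test, and the replicate number as a block.

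Same-numbered WT samples deviated together on average (mean correlation 0.223, -0.145 to 0.572, against -0.074 for different numbers). By IL-4 comparison every pair exceeded 0.1 at 3 h (0.316 to 0.479) and at 6 h (0.105 to 0.561), but only 3 of 4 pairs did at 1 h and 2 of 3 at 24 h. In Stat6KO every pair did at each time (0.791 to 0.9). By this rule the numbers paired the samples at 3 and 6 h in WT and at all times in Stat6KO. The labels do not say what a number stands for. The SE and p-values of the report come from the fit that ignores this pairing, except where the block is named.

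Promoter sequences are RefSeq's. Protein sequences were not analysed here.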

Additional observations from a re-analysis of the deposited data

Results flagged for a closer look

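In 9 of the 80 sets of 4 WT values of a member in a group, 1 sample lay far from the others by Dixon's criterion, where about 4 would be flagged by chance. Batf3 was 6.50 FPKM in 1 h control replicate 1 (the others 4.20 to 4.55) and 40.4 FPKM in 3 h IL-4 replicate 2 (54.3 to 56.8). Junb was 44.3 FPKM in 0 h control replicate 1 (23.9 to 27.2). Fosl2 was 9.37 FPKM in 24 h control replicate 3 (8.08 to 8.26), and Atf3 was 160.5 FPKM in 3 h IL-4 replicate 4 (174.6 to 175.5). Maff was 0.575 FPKM in 0 h control replicate 2 (0.789 to 0.806) and 0.985 FPKM in 24 h control replicate 4 (0.701 to 0.742). Fosl1 was 0.0449 FPKM in 1 h control replicate 4 and 0.0541 FPKM in 3 h control replicate 3, both close to 0.

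The WT and Stat6KO responses to IL-4 differed past the test in limma (adjusted p below 0.05, without a limit on the fold) for 13 of 32 combinations of member and time. As differences of log2 change these were, for Batf3, 1.95, 2.98, 3.26 and 2.46 at 1, 3, 6 and 24 h, for Fosl2 1.88, 1.12, 1.59 and 1.25 at the same times, and for Fos -2.38, -2.46 and -1.79 at 1, 3 and 6 h. Maff differed by 0.87 at 6 h and Atf3 by 1.27 at 24 h. The Fosl2 value at 3 h and those of Maff and Atf3 lost the test when single samples were left out of the fit without a block. With the replicate number as a block and all samples in, these differences passed.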

How the results depend on the processing

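Of 27 called member changes, 24 kept their call in every alternative in which they were fitted, and none reversed. The exceptions were the genotype differences of Fosl2 at 3 h and Atf3 at 24 h and the Junb change of response from 1 to 3 h, with the values given in the report; the cause was not tested. With the fit limited to the samples compared, the first 2 had adjusted p of 0.0654 and 0.112. Of 42 member changes past the test 28 stayed past it throughout. The count of members called moved where no fold was required, which adds the smaller changes by construction: to 6 at 6 h and 7 at 24 h for IL-4 in WT, to 2 for the WT controls at 24 h against 0 h, to 1 for Stat6KO against WT controls over the mean of 5 times and to 2 for the response at 24 h against 6 h. Without a filter and with 0.1 as pseudocount, chosen after seeing the data, it was 5 for IL-4 in WT at 24 h and 2 for the response at 24 h against 6 h. Over all loci, a pseudocount of 0.1 moved the calls from 617 to 931 (WT 6 h), 947 to 1522 (WT 24 h) and 763 to 1198 (genotype difference, 24 h), and without a filter as well to 258, 701, 1030 and 1734 from 166, 433, 617 and 947 (WT 1, 3, 6 and 24 h) and to 748 and 1297 from 491 and 763 (genotype difference, 6 and 24 h). With the replicate number as a block, 17 of 192 member results changed their side of the adjusted p threshold. All 17 passed with the block and not without it: beside those in the report, the genotype differences of Junb at 1 h (-1.18, adjusted p = 0.012), Atf3 at 6 h (0.0444) and Fos (0.00821), Jun (0.0231) and Maff (0.00254) at 24 h, the WT controls against 0 h for Fosl2 at 1, 3 and 6 h and Fos at 3 and 6 h (0.000914 to 0.0223), and the change of response of Maff from 1 to 3 h (0.00684) and of Batf3 (0.03) and Jun (0.0428) from 6 to 24 h. With the block no count of members called moved by over 1.5 times. Tukey's test, besides Fos and Jun at 24 h, lost Junb at 1 and 6 h, Maff at 3 h, Atf3 at 6 h and Jund at 24 h (adjusted p = 0.0621 to 0.42), and Fosl2 in the WT controls at 24 h (0.388). It was not run for genotype differences, means over times or changes of response. The FPKM files give no read counts, so counting error is unknown, and 2 samples per Stat6KO group limit what could be seen there.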
